A study of Mus musculus with 7 samples.

Results

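Fatty acid oxidation was examined through 31 genes that encode the carnitine shuttle, the enzymes of mitochondrial and peroxisomal beta-oxidation, the electron transfer flavoprotein, a mitochondrial acyl-CoA thioesterase, and the nuclear receptors PPARalpha and PPARdelta. The rule that names them uses function and no measured value, but they were chosen with earlier results of these data known. All 31 were found by gene symbol among the 57010 gene identifiers of the count table, and all 31 passed the filter on low counts that left 17039 genes for testing.

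RNA had been sequenced from mature white adipocytes that were freed from perigonadal fat with collagenase. Controls were 3 FFA2 fl/fl mice and knockouts were 4 Adipoq-F2-KO mice, all male, 20 weeks old, fed normal chow and given no other treatment. FFA2, encoded by Ffar2, is a receptor for short-chain fatty acids such as acetate. Both genotypes carried the floxed FFA2 allele, and the Adipoq-F2-KO mice also carried Adiponectin-Cre, in which the adiponectin promoter drives Cre recombinase in adipocytes. The controls were littermates whose genotype label names no Cre, so the transgene itself and the loss of FFA2 cannot be told apart. Each library is labelled as a separate mouse sample, and the p-values measure the spread between these samples.

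Long-chain fatty acids are activated to acyl-CoA, passed to carnitine by carnitine palmitoyltransferase 1, carried across the inner mitochondrial membrane and returned to CoA inside the matrix. Each turn of beta-oxidation then removes an acetyl-CoA through a dehydrogenase, a hydratase, another dehydrogenase and a thiolase, and the electrons of the first step enter the respiratory chain through the electron transfer flavoprotein. Peroxisomes shorten very long and branched chains with enzymes of their own, and PPARalpha and PPARdelta are transcription factors, activated by fatty acids, that are known for switching on many of these genes. White adipocytes mainly store and release fatty acids, and oxidize less of them than brown adipocytes, liver or heart do.

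Total counts per library lay between 30478997 and 39992605. Ffar2 checked the genotype labels: it was at 37.5, 33.9 and 32.0 TMM-normalized CPM (counts scaled to the library size) in the controls and at 1.68, 1.15, 1.33 and 2.58 in the 4 Adipoq-F2-KO libraries (log2 fold change -4.36, adjusted p = 8.0e-06 by edgeR's quasi-likelihood test with Benjamini-Hochberg adjustment). Adipocyte genes were abundant in all 7 libraries, with a summed level of 12 markers between 36654 and 54085 CPM. Adipoq-F2-KO library 4 stood apart, with the lowest adipocyte marker sum and the highest endothelial and macrophage marker sums. Without this library, the percent difference between the genotype means changed by over 1.5 times, or changed sign, in 15 of the 31 members.

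Most fatty acid oxidation genes had slightly lower values in Adipoq-F2-KO adipocytes, and 0 of the 31 were called changed by edgeR. Of the 31 members, 29 had a log2 fold change below 0, against 49.6% of all tested genes. Their median log2 fold change was -0.14, with a range from -0.46 for Acot2 to 0.13 for Ehhadh, and the median of all tested genes was 0.0037. At an adjusted p under 0.05 in edgeR, 0 members were called higher and 0 lower, where the test called 0.798% of all genes higher and 0.217% lower. In bulk samples, fewer cells of a type and less RNA per cell cannot be told apart.

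At an unadjusted p under 0.05, 7 members were lower and 0 higher, beside 7.37% of all tested genes lower and 10.5% higher. This count moved with single libraries: it was 4 without FFA2 fl/fl library 1, FFA2 fl/fl library 2 or Adipoq-F2-KO library 2, 1 without FFA2 fl/fl library 3, and 13 when Adipoq-F2-KO library 3 was left out. In 13 members, which is 41.9%, each of the 4 Adipoq-F2-KO libraries lay below each of the 3 FFA2 fl/fl libraries, and in 0 members did they all lie above. Over all tested genes, 8.72% lay wholly lower in this way and 8.86% wholly higher. limma voom called 0 members, and DESeq2 called 1 lower, Acot2, and 0 higher, where it called 1.48% of all genes lower and 4.34% higher.

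The summed level of the 31 members was 5222, 5063 and 5186 CPM in controls and 4848, 4731, 4954 and 4163 CPM in knockouts. Each knockout library was thus under each control library, and library 4 was the lowest. The mean went from 5157 ± 83.4 (SD, n = 3) to 4674 ± 353 (SD, n = 4), a difference of -9.36%. Without library 4 the knockout mean was 4844 ± 111 (SD, n = 3) and the difference -6.06%. Library by library, the median member lay 0.11, 0.16, 0.06 and 0.29 log2 units under its FFA2 fl/fl mean in Adipoq-F2-KO libraries 1 to 4 (median deviations -0.11, -0.16, -0.06 and -0.29). These 4 libraries had 19, 27, 16 and 29 members below every FFA2 fl/fl library. The members also varied together inside a genotype: the median correlation between the deviations of 2 members from their genotype means was 0.527 over the 7 libraries. All genes of a library share its depth and cell makeup, and no such value for other genes was set beside this one.

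**Figure D1:**
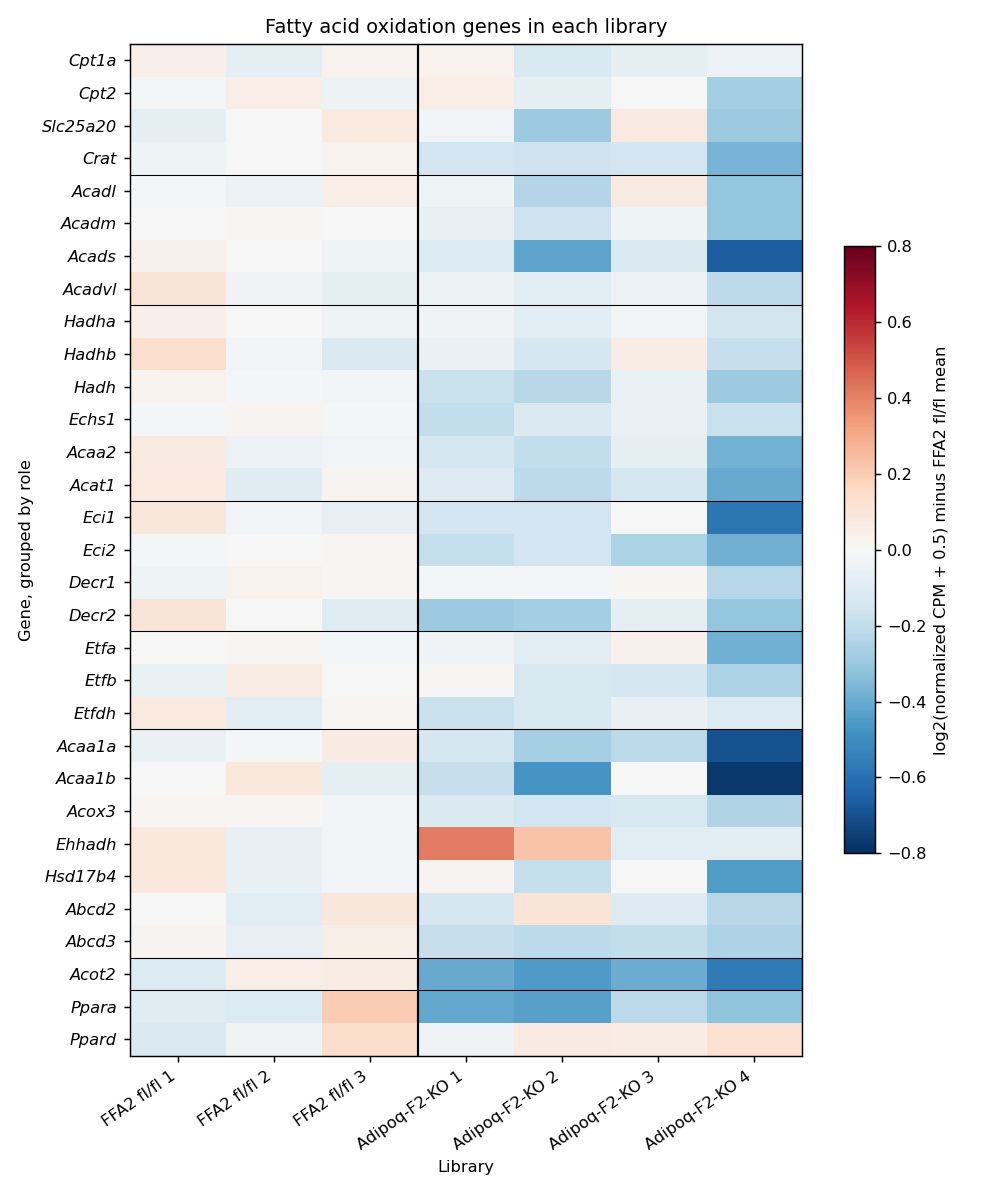
Heat map of the 31 fatty acid oxidation genes, grouped by role, in the 7 libraries. Colour gives each gene's log2 CPM minus its mean over the 3 FFA2 fl/fl libraries, and the Adipoq-F2-KO columns are mostly below 0, most of all library 4, in which 30 of 31 members lay below the control mean.

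**Figure D2:**
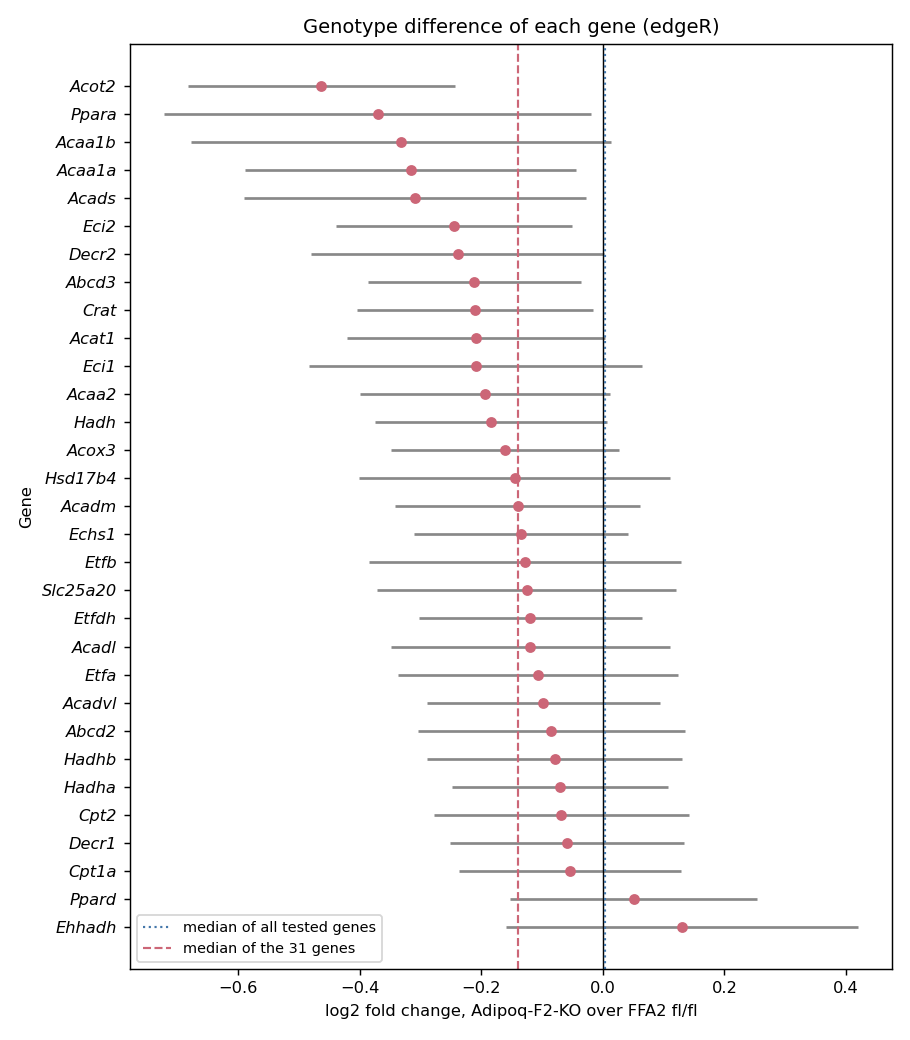
Log2 fold change, Adipoq-F2-KO over FFA2 fl/fl, of each member with its 95% confidence interval from edgeR. The estimates run from -0.46 (Acot2) to 0.13 (Ehhadh), 29 of 31 lie below 0, and the intervals of 7 members do not include 0.

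The carnitine shuttle had 4 members, all with a log2 fold change below 0 and a median of -0.10. Crat, carnitine acetyltransferase, exchanges acetyl groups between CoA and carnitine and was the most expressed of them per gene length. Crat (ENSMUSG00000026853, chromosome 2, 30290483 to 30305825 in the deposited table) was at 334, 342 and 348 CPM in the control libraries and at 306, 304, 307 and 263 CPM in the knockout libraries. The groups did not overlap, and library 4 was well under the other 3 knockout libraries. Its mean went from 341 ± 7.10 to 295 ± 21.3 CPM (SD, n = 3 and 4), a difference of -13.6%, with a log2 fold change of -0.21 (SE 0.09) and an adjusted p of 0.246 in edgeR. The opposite-strand gene Dolpp1 overlaps Crat, and its counts equal 7.45% of those of Crat.

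The other 3 shuttle genes had log2 fold changes closer to 0. Cpt1a, the liver-type carnitine palmitoyltransferase 1 and the regulated entry step, was at 92.6, 85.4 and 91.9 CPM in controls and at 91.6, 82.4, 85.5 and 86.9 CPM in knockouts. These ranges overlapped, and the log2 fold change was -0.05 with a 95% interval from -0.24 to 0.13. Cpt2, which returns the acyl group to CoA in the matrix, had a log2 fold change of -0.07 (-0.28 to 0.14), and Slc25a20, the carnitine-acylcarnitine carrier of the inner membrane, had -0.13 (-0.37 to 0.12).

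The acyl-CoA dehydrogenases catalyse the first step of each turn and differ in the chain length they take. All 4 were below 0, with a median log2 fold change of -0.13. Acads, for short chains (ENSMUSG00000029545, chromosome 5, 115248358 to 115257405), was at 149, 146 and 142 CPM in controls and at 135, 109, 135 and 92.3 CPM in knockouts. The groups did not overlap, but knockout libraries 2 and 4 were far under libraries 1 and 3. The mean went from 146 ± 3.52 to 118 ± 20.9 CPM, a difference of -19.3% (log2 fold change -0.31, SE 0.13, adjusted p = 0.239 in edgeR).

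Acadl, for long chains, was the highest dehydrogenase per deposited gene length, close to Acadm (109 and 105 RPKM in controls). In CPM, Acadm was higher, and the order rests on the length used. Acadl was at 218, 212 and 228 CPM in controls and at 214, 186, 230 and 176 CPM in knockouts. Libraries 1 and 3 were inside the control range or just above it, and libraries 2 and 4 were under it, so the groups overlapped (log2 fold change -0.12, 95% interval -0.35 to 0.11, adjusted p = 0.589 in edgeR). Its mean difference was -7.94% with library 4 and -4.11% without it. Acadm, for medium chains, was wholly lower, with means of 412 ± 1.75 and 374 ± 31.9 CPM (-9.25%, and -5.85% without library 4), and Acadvl, for very long chains, overlapped, with a log2 fold change of -0.10.

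The 6 genes of the later mitochondrial steps were all below 0, with a median of -0.16. Of the 6, 4 (Hadh, Echs1, Acaa2 and Acat1) lay wholly lower in knockouts, beside 8.72% of all tested genes. Hadh, the 3-hydroxyacyl-CoA dehydrogenase for shorter chains, was the most expressed of the 6 per gene length. Hadh was at 378, 368 and 364 CPM in controls and at 327, 317, 356 and 302 CPM in knockouts, with every knockout library under every control library. Its mean went from 370 ± 7.11 to 325 ± 22.9 CPM, a difference of -12.0% (log2 fold change -0.18, SE 0.09, adjusted p = 0.298 in edgeR). Echs1, the enoyl-CoA hydratase, had a log2 fold change of -0.14, Acaa2, the thiolase, of -0.19, and Acat1, the acetoacetyl-CoA thiolase, of -0.21, with adjusted p-values in edgeR of 0.407, 0.305 and 0.287.

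Hadha and Hadhb encode the alpha and beta chains of the mitochondrial trifunctional protein and lie head to head on chromosome 5. By the deposited coordinates, 85 bases separate them, and their RefSeq promoter windows, from 250 bases before to 50 after each start, share 228 bases. That stretch is printed because it is the promoter sequence that both genes have in common, read on the plus strand from GRCm38.p6 at chr5:30155003-30155230:
Hadha and Hadhb: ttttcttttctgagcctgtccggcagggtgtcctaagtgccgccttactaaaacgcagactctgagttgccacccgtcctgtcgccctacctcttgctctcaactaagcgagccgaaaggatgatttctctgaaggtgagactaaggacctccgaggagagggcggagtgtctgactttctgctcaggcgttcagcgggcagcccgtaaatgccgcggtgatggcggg
The 2 genes had close log2 fold changes, -0.07 (-0.25 to 0.11) for Hadha and -0.08 (-0.29 to 0.13) for Hadhb, and overlapped between genotypes. Of the 150-base windows of the Hadhb transcript, 43.7% are also in the predicted gene Gm13910, so the counts of Hadhb are uncertain.

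Unsaturated fatty acids need enoyl-CoA isomerases and dienoyl-CoA reductases to bring their double bonds into place. The 4 members of this kind were all below 0 and had a median log2 fold change of -0.22. Eci2, an isomerase found in both mitochondria and peroxisomes (ENSMUSG00000021417, chromosome 13, 35161731 to 35211079), was at 62.8, 63.8 and 64.1 CPM in controls and at 55.6, 57.0, 53.3 and 48.6 CPM in knockouts. The controls were nearly level, and all 4 knockout libraries were under them. The mean went from 63.6 ± 0.676 to 53.6 ± 3.68 CPM, a difference of -15.6% (log2 fold change -0.24, SE 0.09, adjusted p = 0.184 in edgeR).

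Decr2, the peroxisomal dienoyl-CoA reductase, was at 27.3, 25.3 and 23.6 CPM in controls and at 20.7, 20.96, 24.1 and 20.4 CPM in knockouts. Knockout library 3 was above the lowest control, so the groups overlapped (difference -15.3%, log2 fold change -0.24, SE 0.11, adjusted p = 0.283 in edgeR). Eci1, the mitochondrial isomerase, was at 130, 120 and 117 CPM in controls and at 110, 110, 122 and 81.6 CPM in knockouts. Library 3 was within the control range and library 4 was far under it (log2 fold change -0.21, SE 0.12, adjusted p = 0.409 in edgeR). The mean difference of Eci1 was -13.5% with library 4 and -6.93% without it. Decr1, the mitochondrial reductase, had a log2 fold change of -0.06.

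The electron transfer flavoprotein passes electrons from the dehydrogenases to ubiquinone. Etfa, its alpha chain, had the highest level of all 31 members per deposited gene length, a rank that rests on this length. It was at 267, 268 and 264 CPM in controls and at 261, 252, 273 and 204 CPM in knockouts. Library 4 alone was far under the controls and library 3 was above them (log2 fold change -0.11, 95% interval -0.34 to 0.12, adjusted p = 0.640 in edgeR). Its mean difference was -7.11% with library 4 and -1.68% without it. The beta chain Etfb and the oxidoreductase Etfdh had log2 fold changes of -0.13 and -0.12, and all 3 genes overlapped between genotypes. The predicted gene Gm45233, listed at 0 in every library, holds 62.9% of the 150-base windows of Etfb, so the level of Etfb is uncertain.

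Peroxisomal enzymes and transporters gave 7 members, of which 6 were below 0 (median log2 fold change -0.16). Of the 7, 3 (Acaa1a, Abcd3 and Acox3) lay wholly lower in knockouts, beside 8.72% of all tested genes. Abcd3, the peroxisomal membrane transporter also called PMP70 (ENSMUSG00000028127, chromosome 3, 121552423 to 121608951), was at 86.0, 80.9 and 87.4 CPM in controls and at 74.4, 73.2, 74.0 and 71.2 CPM in knockouts. The 4 knockout libraries were close together and all under the controls, library 4 included. The mean went from 84.8 ± 3.42 to 73.2 ± 1.41 CPM, a difference of -13.7% (log2 fold change -0.21, SE 0.08, adjusted p = 0.199 in edgeR).

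Acaa1a and Acaa1b are near-identical genes for the peroxisomal thiolase, which removes acetyl-CoA in the last step. Acaa1a (ENSMUSG00000036138, chromosome 9, 119168742 to 119179365) was at 128, 132 and 139 CPM in controls and at 120, 111, 115 and 81.7 CPM in knockouts, with no overlap and library 4 lowest. The mean difference was -19.7% (133 ± 5.53 to 107 ± 17.3 CPM, log2 fold change -0.32, SE 0.12, adjusted p = 0.216 in edgeR). Acaa1b was at 52.2, 55.5 and 49.5 CPM in controls and at 46.0, 37.7, 52.4 and 30.4 CPM in knockouts, and library 3 was within the control range. Its mean difference was close to that of its copy, -20.6%, with a wider spread (log2 fold change -0.33, SE 0.16, adjusted p = 0.298 in edgeR). Without library 4 the differences were -13.4% for Acaa1a and -13.5% for Acaa1b. The copies share 12.7% and 13.3% of their 150-base windows, and Myd88, on the opposite strand over Acaa1a, has counts equal to 47.6% of those of Acaa1a, so the counts of the thiolase genes are uncertain. Myd88 itself had a log2 fold change of 0.23 (adjusted p = 0.524 in edgeR).

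Abcd2, the transporter of very long chain acyl-CoA that is abundant in fat, was the highest peroxisomal member per deposited gene length. It was at 752, 713 and 802 CPM in controls and at 687, 812, 702 and 648 CPM in knockouts. Its highest library was knockout library 2, and the groups overlapped (log2 fold change -0.08, 95% interval -0.30 to 0.13, adjusted p = 0.700 in edgeR). Without library 4 its mean difference was -2.89% in place of -5.71%. Hsd17b4, the D-bifunctional protein, had a log2 fold change of -0.15, with a mean difference of -9.57%, and -3.86% without library 4. The log2 fold change of Acox3, an acyl-CoA oxidase for branched chains, was -0.16. Ehhadh, the L-bifunctional enzyme, was 1 of the 2 members above 0 and was chosen for mention after its values were seen. It was at 42.8, 38.6 and 39.7 CPM in controls and at 53.6, 47.2, 37.8 and 37.8 CPM in knockouts, 2 of which were above every control and 2 below (log2 fold change 0.13, 95% interval -0.16 to 0.42, adjusted p = 0.649 in edgeR). Its mean difference was 9.39% with library 4 and 14.6% without it.

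Acot2, the mitochondrial acyl-CoA thioesterase that releases free fatty acids from long-chain acyl-CoA in the matrix, had the largest difference of the 31 members. Acot2 (ENSMUSG00000021226, chromosome 12, 84034635 to 84040647) was at 31.4, 35.3 and 35.4 CPM in controls and at 25.5, 24.6, 25.7 and 22.8 CPM in knockouts. The knockout libraries were within 3 CPM of each other and all under the lowest control. The mean went from 34.0 ± 2.28 to 24.7 ± 1.32 CPM, a difference of -27.5%, with a log2 fold change of -0.46 (SE 0.10, 95% interval -0.68 to -0.24). Its unadjusted p was 0.000682 and its adjusted p 0.0554 in edgeR's quasi-likelihood test, just over the threshold. DESeq2 gave an adjusted p of 0.00342, and over all alternatives tried the adjusted p lay between 0.00342 and 0.229. Acot2 shares 10.2% of its 150-base windows with its neighbour Acot1, which was under 2 CPM in every library.

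Of the nuclear receptors, Ppara had a log2 fold change below 0 and Ppard one above 0, and neither was called. Ppara (ENSMUSG00000022383, chromosome 15, 85619184 to 85687020) was at 7.93, 7.86 and 9.90 CPM in controls and at 6.30, 6.17, 7.30 and 6.72 CPM in knockouts, with no overlap. Its mean went from 8.56 ± 1.16 to 6.62 ± 0.511 CPM, a difference of -22.7% (log2 fold change -0.37, SE 0.16, adjusted p = 0.257 in edgeR). Ppard was at 58.0, 61.6 and 69.5 CPM in controls and at 61.7, 65.7, 65.5 and 68.3 CPM in knockouts, wholly within the control range. Its log2 fold change was 0.05 with a 95% interval from -0.15 to 0.25 (adjusted p = 0.816 in edgeR), and without FFA2 fl/fl library 1 its sign turned. Per gene length Ppard stood at 8.39 ± 0.781 RPKM (CPM divided by gene length in kilobases) in controls, and Ppara at 2.23 ± 0.302 RPKM, the lowest level of all members.

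As a check of single genes, an exact two-sided permutation test of the mean CPM over the 35 ways to assign 3 and 4 libraries gave p = 0.0286, the smallest it can give, for Crat, Eci2, Abcd3, Acox3, Acot2 and Ppara. The same exact permutation test gave p = 0.0571 for Hadh, Echs1, Acaa2, Acat1 and Acaa1a, and 0.0857 for Acads, Acadm, Decr2 and Etfdh. These p-values are not adjusted for the 31 genes, and their share over all tested genes was not computed. The genes at p = 0.0286 in this permutation test all lay wholly lower in knockouts, as 8.72% of all tested genes did.

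**Figure D3:**
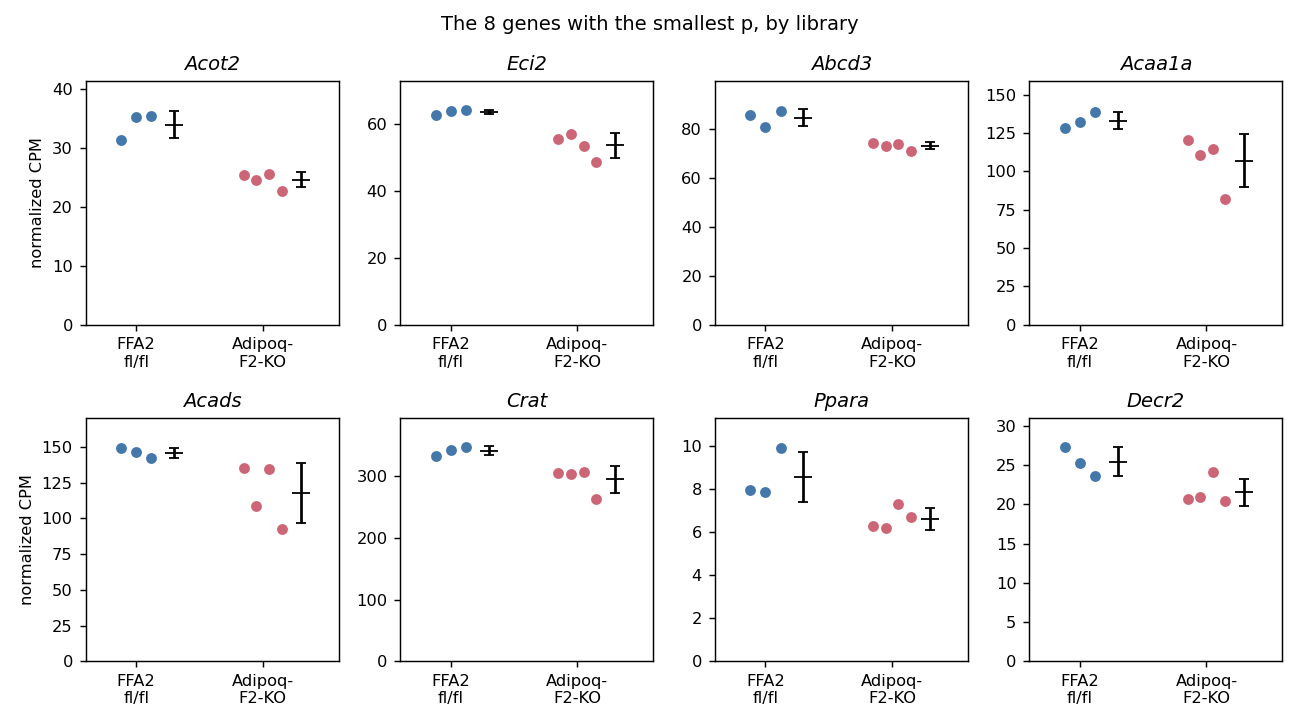
Normalized CPM of the 8 members with the smallest unadjusted p, 1 point per library, with the mean and SD of each genotype. In Acot2, Eci2, Abcd3, Acaa1a, Acads, Crat and Ppara the 4 Adipoq-F2-KO points lie under all 3 FFA2 fl/fl points, and in Decr2 library 3 overlaps.

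Per gene length, the 31 members covered a wide range of levels. Etfa was highest at 145 RPKM in controls and 135 in knockouts, followed by Abcd2 at 127 and 120, Hsd17b4 at 124 and 112, Acadl at 109 and 101, and Acadm at 105 and 95.7 RPKM. Acox3 at 4.09 and 3.66 RPKM and Ppara were at the bottom. Etfa stood well above Etfdh, at 13.2 and 12.2 RPKM, which was near the shuttle enzyme Cpt1a, at 11.8 and 11.3 RPKM. Etfb was counted at 13.7 and 12.5 RPKM. This level is uncertain, as the predicted gene Gm45233 holds 62.9% of the 150-base windows of Etfb. These levels use the summed exon length of the deposited table, which counts every annotated exon of a gene once. The longest coding transcript of Hadh had 1789 bases against a summed 4977, and that of Acadm 2047 against 3913. For Etfa it had 1392 against 1835, so ranks such as that of Etfa rest on the length used.

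**Figure D4:**
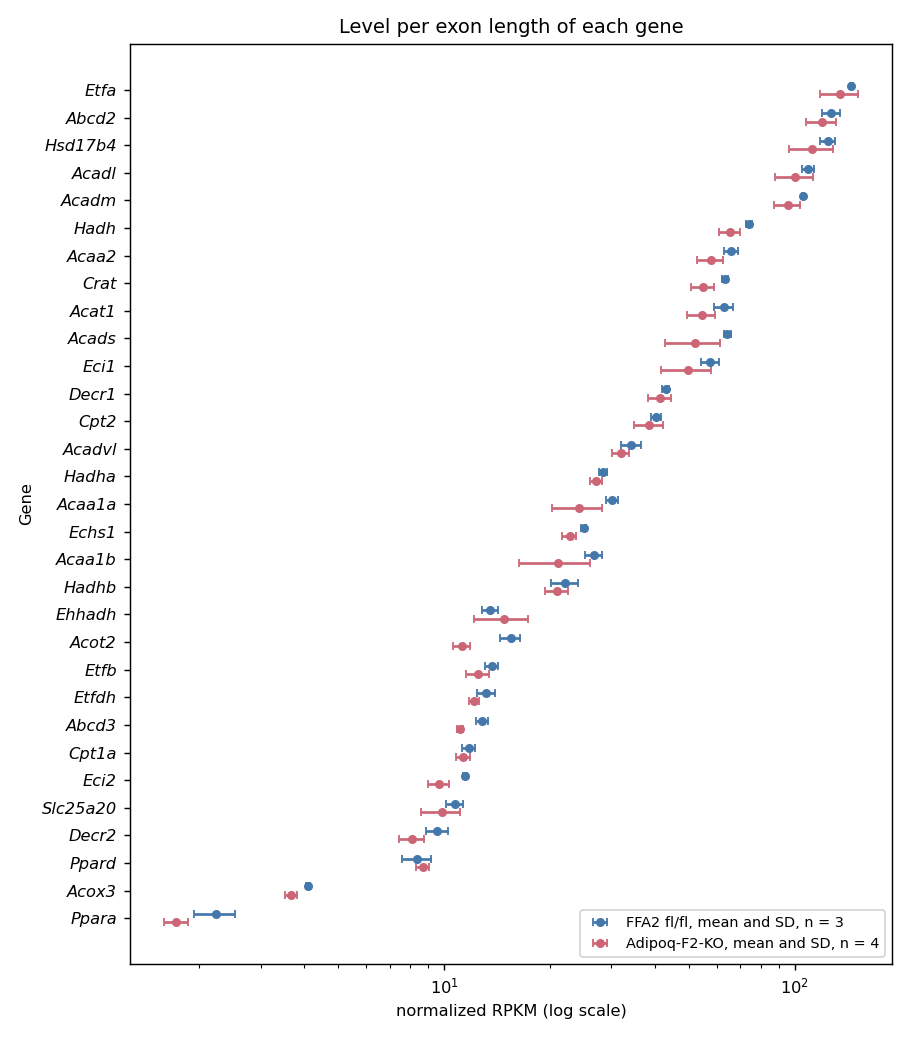
Mean RPKM of each member in FFA2 fl/fl (n = 3) and Adipoq-F2-KO (n = 4) libraries on a log axis, with the SD, ordered by level. Levels run from under 3 RPKM for Ppara to 145 RPKM for Etfa, and the genotype means lie close together along the whole range.

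The promoters of the members were searched for the binding element of PPAR, a direct repeat of the hexamer AGGTCA with 1 base between the copies (DR1). RefSeq promoter windows of 300 bases in GRCm38.p6 were matched for 25 of 31 members, with 26 windows in all. With up to 2 mismatches on either strand, the DR1 was in 3 of 26 member windows (11.5%) and in 3.86% of the 32851 windows of all genes. These 3 are printed with 60 bases each, on the strand of the gene and with the matched 13 bases in capitals, to show where the element lies. For Echs1 (chr7:140116468-140116527, minus strand) and Slc25a20 (chr9:108662119-108662178, plus strand) the match is on the strand of the gene, and for Etfa (chr9:55512284-55512343, minus strand) it is on the other strand:
Echs1: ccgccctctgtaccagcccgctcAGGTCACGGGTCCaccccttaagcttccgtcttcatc
Slc25a20: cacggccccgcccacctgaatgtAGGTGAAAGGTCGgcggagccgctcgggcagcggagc
Etfa: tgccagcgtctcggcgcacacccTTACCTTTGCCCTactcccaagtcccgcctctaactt
The match begins at position -83 from the start of transcription in Echs1, at -77 in Etfa and at 6 in Slc25a20. With at most 1 mismatch, 0 of 26 member windows and 0.554% of all windows held the DR1. A single AGGTCA, which the DR1 contains, was in 4 of 26 member windows (15.4%; Acadm, Acadvl, Cpt1a and Echs1) and in 16.3% of all windows. The longer TCAAGGTCA, the element of the estrogen-related receptors, was in 0 of 26 and in 0.423%. The log2 fold changes of the 3 genes with a DR1 match were -0.14 for Echs1, -0.11 for Etfa and -0.13 for Slc25a20. Median GC content was 61.0% in member windows and 52.7% in all windows.

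Around these 31 genes, a wider list of 99 genes of acyl-CoA, peroxisome and PPAR biology was examined, of which 88 passed the filter on low counts. edgeR called 0 of the 88 higher and 1 lower, against 0.798% and 0.217% of all genes, and 69 of 88 were below 0 (median log2 fold change -0.18). limma voom called 0 higher and 1 lower, and DESeq2 2 higher and 4 lower. At an unadjusted p under 0.05, 23 were lower and 5 higher, beside 7.37% and 10.5% of all genes. Of the 88, 28 (31.8%) lay wholly lower, beside 8.72% of all genes, and 6 (6.82%) wholly higher, beside 8.86%. The gene that edgeR called lower was Lpin1, which makes diacylglycerol and coactivates PPARalpha. It was at 1063, 826 and 969 CPM in controls and at 590, 541, 621 and 473 CPM in knockouts (log2 fold change -0.78, SE 0.12, adjusted p = 0.0332 in edgeR). The call of Lpin1 was lost without FFA2 fl/fl library 1 (adjusted p = 0.196 in edgeR), FFA2 fl/fl library 3 (0.131) or Adipoq-F2-KO library 2 (0.0590), and over all alternatives its adjusted p lay between 2.0e-07 and 0.196.

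Acacb, acetyl-CoA carboxylase 2, makes the malonyl-CoA that inhibits Cpt1a, and was at 329, 263 and 274 CPM in controls and at 239, 196, 169 and 157 CPM in knockouts. The groups did not overlap, but the adjusted p was 0.0675 in edgeR (log2 fold change -0.60, SE 0.14). All 4 genes of malonyl-CoA turnover were below 0, with a median of -0.31.

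Among coactivators, Pprc1, a relative of PGC-1alpha, was at 31.5, 34.6 and 38.9 CPM in controls and at 51.2, 65.9, 48.4 and 84.8 CPM in knockouts (log2 fold change 0.84, SE 0.18, adjusted p = 0.0540 in edgeR). It was wholly higher, with library 4 highest. Acsl4, an acyl-CoA synthetase that prefers arachidonic acid, was also wholly higher, with means of 26.6 ± 2.62 and 42.0 ± 11.6 CPM (log2 fold change 0.66, adjusted p = 0.108 in edgeR).

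Ivd, isovaleryl-CoA dehydrogenase of leucine breakdown, was at 315, 314 and 321 CPM in controls and at 235, 263, 267 and 228 CPM in knockouts, wholly lower (log2 fold change -0.35, SE 0.09, adjusted p = 0.0824 in edgeR). All 15 tested genes among the other mitochondrial acyl-CoA enzymes were below 0, with a median of -0.19. Pex6, an ATPase of peroxisomal protein import, was level in controls at 83.9, 83.8 and 83.8 CPM and was at 73.9, 58.1, 71.8 and 58.8 CPM in knockouts (log2 fold change -0.35, SE 0.11, adjusted p = 0.124 in edgeR). Of 17 peroxin genes, 15 were below 0 (median -0.20). The 8 tested genes of acyl-CoA activation and carnitine were evenly divided, 4 above and 4 below 0.

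Other gene groups were set beside the members. Of 25 nuclear genes of mitochondrial content, such as Cs and Vdac1, 23 were below 0, with a median log2 fold change of -0.19, and 12 (48.0%) lay wholly lower, beside 8.72% of all genes. edgeR and limma voom called 0 of them in either direction and DESeq2 1 lower, beside 1.48% of all genes. Beside 7.37% of all genes, 7 of the 25 were lower at an unadjusted p under 0.05 in edgeR. Their sum went from 7224 ± 286 to 6375 ± 411 CPM, a difference of -11.7%, beside -9.36% for the members, and without library 4 the differences were -9.44% and -6.06%. Genes of the mitochondrial chromosome went the other way, with 4.41%, 5.77% and 4.98% of the counts in controls and 7.82%, 6.61%, 9.24% and 10.3% in knockouts, and did not overlap.

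Adipocyte markers were also below 0 in 11 of 12 genes, with a median of -0.30. edgeR and limma voom called 0 of them and DESeq2 3 lower, beside 1.48% of all genes. At an unadjusted p under 0.05 in edgeR 6 were lower and 1 higher, beside 7.37% and 10.5% of all genes. Wholly lower were 5 (41.7%), beside 8.72% of all genes, and wholly higher 1 (8.33%), beside 8.86%. The sum of the 12 markers was 48688, 52486 and 54085 CPM in controls and 44431, 45890, 48337 and 36654 CPM in knockouts, a difference of -15.3%, and of -10.7% without library 4. Cfd, the most abundant of them, had a log2 fold change of -0.32 (adjusted p = 0.236 in edgeR). Pparg, which encodes PPARgamma, was the only marker above 0. It went from 205 ± 15.1 to 247 ± 18.8 CPM (SD, n = 3 and 4) and was wholly higher. Its log2 fold change was 0.27 (adjusted p = 0.178 in edgeR). By library, the median deviation of the adipocyte markers from the control mean was -0.22, -0.24, -0.13 and -0.61 in the 4 knockouts. That of the oxidation genes was -0.11, -0.16, -0.06 and -0.29. Both lists were lowest in library 4 and nearest to the controls in library 3. The median deviation of the mitochondrial content genes was -0.07, -0.22, -0.10 and -0.32. It was also lowest in library 4, but nearest to the controls in library 1.

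Markers of other cells of fat had log2 fold changes mostly above 0. Macrophage markers were above 0 in 14 of 15 genes (median 0.61) and summed to 553, 719 and 628 CPM in controls and to 839, 805, 944 and 1004 CPM in knockouts. Of the 15 macrophage markers, edgeR and limma voom each called 2 higher and DESeq2 8, and none of the tools called 1 lower. At an unadjusted p under 0.05 in edgeR 11 were higher, beside 10.5% of all genes. Wholly higher were 7 (46.7%), beside 8.86% of all genes. The genes called by edgeR were Lyz2 and Cd68 (log2 fold changes 0.69 and 0.72, adjusted p = 0.0383 and 0.0416 in edgeR). Both calls were lost without FFA2 fl/fl library 1 (0.201 and 0.227), FFA2 fl/fl library 3 (0.155 and 0.164), Adipoq-F2-KO library 2 (0.0639 and 0.0677) or Adipoq-F2-KO library 3 (0.0689 for both), and that of Cd68 also without Adipoq-F2-KO library 1 (0.0567) or 4 (0.0546). The most abundant macrophage marker, Cd74, had a log2 fold change of 0.54 (adjusted p = 0.129 in edgeR). Endothelial markers were above 0 in 10 of 10 genes (median 0.47), with sums of 1077 to 1421 CPM in controls and 1494 to 2356 CPM in knockouts, a difference of 42.1%, and of 26.0% without library 4. edgeR and limma voom called 0 of them and DESeq2 4 higher, beside 4.34% of all genes. At an unadjusted p under 0.05 in edgeR 8 were higher, beside 10.5% of all genes. The most abundant endothelial marker, Cdh5, had means of 352 ± 62.1 and 531 ± 130 CPM. Fibroblast progenitor markers were above 0 in 8 of 10 genes (median 0.37), with sums that overlapped, 914 to 1033 CPM in controls and 903 to 1298 CPM in knockouts, a difference of 9.42%, and of 1.41% without library 4. edgeR and limma voom called 0 of them and DESeq2 1 higher, beside 4.34% of all genes. At an unadjusted p under 0.05 in edgeR 4 were higher, beside 10.5% of all genes. The most abundant fibroblast progenitor marker, Col1a2, had a log2 fold change of -0.21.

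Brown and beige adipocyte markers, which mark fat cells with high rates of oxidation, were tested in 9 of 10 genes, with 5 above and 4 below 0 and a median of 0.02. edgeR, limma voom and DESeq2 called 0 of them, and 1 was higher at an unadjusted p under 0.05 in edgeR. The most abundant, Kcnk3, had means of 33.9 ± 13.4 and 21.7 ± 8.74 CPM. Ucp1, the defining gene of brown fat, stayed between 0 and 0.882 CPM in controls. In knockout libraries 1 to 4 it was at 0.151, 0.122, 0.885 and 5.02 CPM, so only library 4 was far above the controls (adjusted p = 0.465 in edgeR). Mesothelial markers summed to between 10.7 and 57.7 CPM, and those of epididymal epithelium, neutrophils and T cells to at most 19.4, 5.01 and 4.26 CPM, and edgeR, limma voom and DESeq2 called 0 of the tested genes. Of these, 1 mesothelial marker was higher and 2 were lower at an unadjusted p under 0.05 in edgeR. The part of cell makeup in the lower values of the oxidation genes was not tested.

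**Figure D5:**
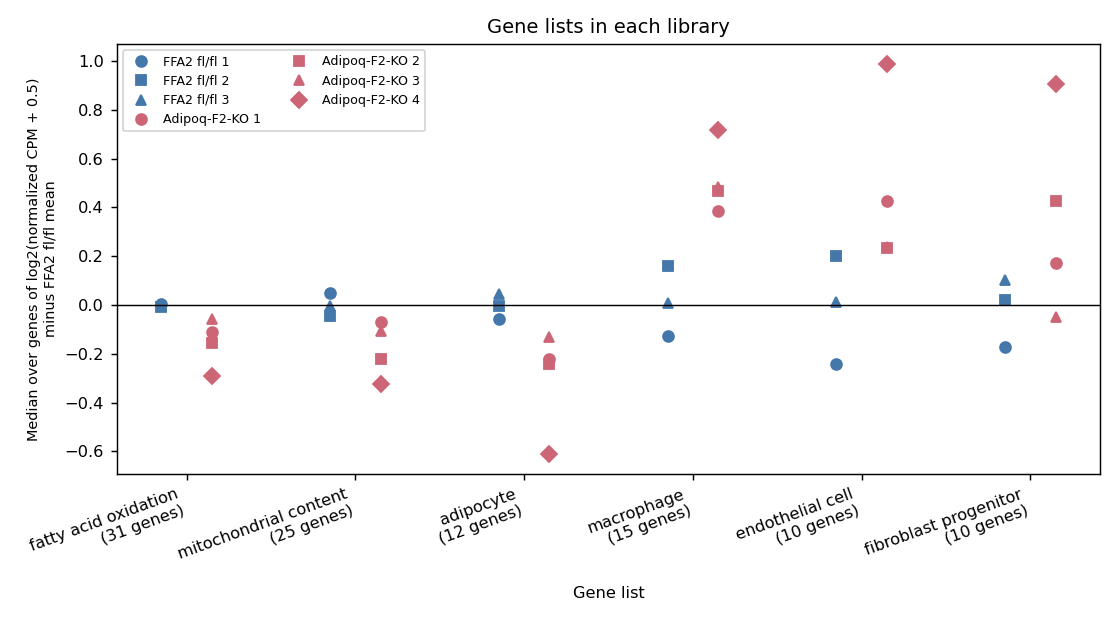
Median log2 deviation from the FFA2 fl/fl mean in each library for the fatty acid oxidation genes and the mitochondrial content and cell type marker lists. The oxidation genes, mitochondrial content genes and adipocyte markers lie below 0 in all 4 Adipoq-F2-KO libraries, while macrophage and endothelial markers lie above 0, with library 4 at the extremes.

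Without Adipoq-F2-KO library 4, the median log2 fold change of the 31 members was -0.10, and 29 of them were still below 0.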

How the data were processed

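Adipocytes from 3 control and 4 knockout mice were profiled by RNA-Seq of polyadenylated RNA with a stranded kit and paired reads. The submitters' processing notes name Trimmomatic, STAR, featureCounts, DESeq2 and GRCm38 (mm10). The authors deposited read counts per gene as whole numbers, without normalization. How the counting treated strand and overlapping genes is not given in the sources used here, and the starts of 30 of the 31 genes differ by over 1000 bases from GRCm38.p6, so gene coordinates are as the deposited table gives them. Between 85.5% and 88.8% of low counts were even, so a fragment appears to add 2 counts, and 0 counts allow up to 0.150 to 0.197 CPM (3 fragments, counting error only).

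From the counts, genes were filtered with filterByExpr, scaled by TMM and tested two-sided with the quasi-likelihood test of edgeR 4.0.16 in R 4.3.3, with genotype as the only term and Benjamini-Hochberg adjustment over 17039 genes. The script was tested on simulated data. CPM are TMM-normalized, RPKM divide them by the deposited gene length, and log2 deviations use a pseudocount of 0.5. Values in every library are given for the 8 members with the smallest p, the highest by RPKM in each role group, Acaa1a, Acaa1b, Acot2, Ppara and Ppard, with the 6 wider genes of smallest p and the called or most abundant genes of other lists. A few others were added after their values were seen. The members and lists were chosen with earlier results of these data known.

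The alternatives were DESeq2 1.42.0, voom of limma 3.58.1, other scalings and filters, a replicate block and leaving out each library. No libraries of a genotype were duplicates (chi-square per degree of freedom 41.9 to 170).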

Additional observations from a re-analysis of the deposited data

Results flagged for a closer look

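In the 4 Adipoq-F2-KO libraries, 3 of the 31 fatty acid oxidation genes had 1 library far from the others by Dixon's test, which chance alone flags in about 1 of 20 groups. In Crat, carnitine acetyltransferase, library 4 was at 263 CPM and the others between 304 and 307 CPM, a gap of 0.937 of the whole range. Decr1, the mitochondrial dienoyl-CoA reductase, had library 4 at 142 CPM and the others between 165 and 168 CPM, a gap of 0.879 of the range. Decr2, its peroxisomal counterpart, had library 3 at 24.1 CPM and the others between 20.4 and 20.96 CPM, a gap of 0.845 of the range.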

How the results depend on the processing

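The median log2 fold change of the 31 members stayed between -0.19 and -0.10 under every alternative run, lowest without Adipoq-F2-KO replicate 3 and highest without Adipoq-F2-KO replicate 4, and 29 or 30 members were below 0. The count of members called lower was 0 in edgeR and 1, Acot2, with total counts in place of TMM (adjusted p = 0.0492), with a filter of at least 1 count (0.0125) and with DESeq2 (0.00342). When each library was left out, 0 members were called in either direction, and the adjusted p of Acot2 lay between 0.0671 and 0.229. Leaving out a library cannot make separated groups overlap, so the count of members wholly lower could not fall from 13. It ran from 13 to 18, beside 10.3% to 14.1% of all genes. The count at an unadjusted p under 0.05 ran from 1 to 13 in these settings, beside 3.90% to 8.33% of all genes lower. It was 11 with total counts, beside 8.28%. Ppard reversed without FFA2 fl/fl replicate 1, to a log2 fold change of -0.0070 (adjusted p = 0.988, edgeR), in a range of -0.0070 to 0.14 over the libraries left out, and the cause was not tested.

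Over all genes, edgeR called 136 higher and 37 lower, DESeq2 739 and 253, and the filter of at least 1 count 1071 and 332. Leaving out each library gave 0 to 151 higher and 1 to 30 lower, with 1 call in all without FFA2 fl/fl replicate 1. Of the wider list, 1 gene was called higher with total counts, 2 with DESeq2 and 2 with the filter of at least 1 count, and 4 and 9 were called lower in the latter settings, with 0 to 1 higher and 0 to 2 lower when each library was left out. Of the mitochondrial content genes, DESeq2 called 1 lower and the filter of at least 1 count 2, with 0 to 1 when each library was left out.

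The replicate numbers do not mark a shared litter or day in the labels, and same-numbered libraries did not deviate together (r = 0.0743, -0.0264 and -0.0404). With the replicate number as a block, 0 members were called and 5 were lower at an unadjusted p under 0.05, their median was -0.10, the adjusted p of Acot2 was 0.116, 191 genes were called higher and 33 lower, and in the wider list 1 was higher and 2 lower. With 3 and 4 mice, a difference of the size of the members' median was not detectable in most single members.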
